A study of Homo sapiens with 12 samples.

Results

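The liver X receptor (LXR) genes and their sterol efflux targets were followed in endometrial cells exposed to AG-205, a small molecule sold as a ligand of the membrane progesterone receptor component PGRMC1. They were the 6 listed symbols NR1H2, NR1H3, ABCA1, ABCG1, SMPDL3A and LPCAT3, each mapped to 1 Ensembl identifier among the 58735 genes counted. The study compared 4 groups of 3 RNA sequencing libraries: HEC-1A and T-HESC cells, each exposed over 32 h to the compound at 15 µM or to its solvent alone, dimethyl sulfoxide (DMSO). HEC-1A is an epithelial-like line from an endometrial adenocarcinoma and T-HESC is a telomerase-immortalised line of endometrial stromal cells, so that each cell type was represented by 1 line. All cells had been grown in medium with fetal bovine serum, without phenol red, antibiotics or added progesterone, and RNA came from 3 independent culture experiments.

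LXRs are nuclear receptors that bind oxysterols, the oxidised derivatives of cholesterol, and act on DNA as a pair with a retinoid X receptor (RXR). When sterols are abundant they activate genes that move cholesterol out of the cell and remodel membrane phospholipids. The SREBP transcription factors work in the opposite sense: when sterols in the endoplasmic reticulum fall, they are cut free and activate cholesterol synthesis and uptake. The LXR genes can therefore be set beside the SREBP targets as a second readout of the same sterol balance.

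NR1H2 (LXRβ, ENSG00000131408, chr19:50329653-50383388, plus strand) and NR1H3 (LXRα, ENSG00000025434, chr11:47248300-47269033, plus strand) encode the receptors. ABCA1 (ENSG00000165029, chr9:104781006-104928155, minus strand) hands cholesterol and phospholipid to apolipoprotein A-I, and ABCG1 (ENSG00000160179, chr21:42199689-42297244, plus strand) hands cholesterol to high-density lipoprotein. SMPDL3A (ENSG00000172594, chr6:122789049-122809720, plus strand) is a secreted phosphodiesterase related to acid sphingomyelinase. LPCAT3 (ENSG00000111684, chr12:6976185-7018477, minus strand) puts polyunsaturated acyl chains on lysophospholipids. These GRCh38 positions are those of GENCODE release 44, whereas the counts were made on Ensembl release 94.

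The ABCA1 promoter is shown because it was the only member promoter among those held in the RefSeq table that carried a near match to the LXR response element. That element is a direct repeat with 4 bases between its parts, searched on both strands as AGGTCA, any 4 bases and AGGTCA again, with at most 2 mismatches in the 12 fixed letters. The table held 7 windows, from 250 bases before to 50 bases after the start, for 4 of the 6 members (1 each for ABCA1, NR1H2 and LPCAT3, 4 for NR1H3). The 250 bases before the ABCA1 start on GRCh38.p14 (chr9:104928156-104928405, minus strand, RefSeq) read as follows, with an E-box and, further downstream, the near match in capitals.
ABCA1 promoter: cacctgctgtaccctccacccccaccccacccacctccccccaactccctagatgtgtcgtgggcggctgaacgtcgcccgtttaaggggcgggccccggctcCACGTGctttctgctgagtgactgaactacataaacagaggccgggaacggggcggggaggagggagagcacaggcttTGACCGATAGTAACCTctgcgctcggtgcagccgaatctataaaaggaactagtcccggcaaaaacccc
The near match lies on the strand opposite to the gene, at chr9:104928209-104928224, with its first base at -69 from the start. Read on that strand, and with letters equal to the fixed letters of the element in capitals, it is as follows.
ABCA1 near match: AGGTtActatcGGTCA
It differed from the element by C5T and A11C, counted from 1 at the 5′ end of the element over all its bases, with the base of the element first. A match of this kind was present in 2.34% of all 35116 promoter windows, so it is not rare. The E-box CACGTG, at -147 in ABCA1, was present in 7.26% of windows and did not overlap the near match. The sterol regulatory element, searched as ATCAC and CCAC with any 1 base between and without mismatches, was present in 0.154% of windows, in none of the 7 of the members, and among 19 windows of SREBP-2 targets in that of SREBF2.

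Values are given in counts-per-million units (CPM) after TMM scaling, the scaling of edgeR, over the 12 libraries. Total counts ranged from 7168542 to 15178276 per library, and a floor of 3 counts corresponded to 0.205 to 0.359 CPM. The biological coefficient of variation was 10.1% among HEC-1A libraries and 33.6% among those of T-HESC. T-HESC AG-205 replicate 1 stood apart from the other libraries of its group: its chi-square per degree of freedom over genes was 160 and 207 against replicates 2 and 3, which differed from each other by 64.5. Its limma quality weight was 0.159, the lowest of the 6 libraries of the line, and the log2 fold changes of the members in T-HESC are therefore given with and without it. HEC-1A AG-205 replicate 3 had the smallest total of the 12 and the lowest weight of its line (0.258), and its chi-square per degree of freedom was 15.4 and 14.2 against replicates 1 and 2, which differed from each other by 4.19. Summed CPM of 8 stromal markers was 12846 to 27111 for T-HESC libraries and 8.44 to 14.6 for those of HEC-1A. Summed CPM of 8 epithelial markers in HEC-1A was 1316 to 1479 with DMSO and 2004 to 2078 with AG-205. In T-HESC, whose CDH1 was at the floor, it was 223.0 to 393.6. Between the DMSO groups 6 of the 8 epithelial markers were lower in T-HESC past the test, but MUC1 was higher there, at 5.57 against 0.311 CPM, and KRT19 was at 106.3 ± 3.90 (SD, n = 3) against 100.3 ± 3.41 CPM. Each library came from 1 line, and in bulk, fewer cells with a transcript and less of it per cell cannot be told apart.

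Both receptors were expressed in both lines and neither passed the test for a change with AG-205. NR1H2 was at 175.9, 157.4 and 158.8 CPM in the 3 HEC-1A DMSO libraries and at 178.2, 162.9 and 170.1 CPM with AG-205. The HEC-1A groups overlapped, and the log2 fold change was 0.06 (SE 0.0898, 95% interval -0.14 to 0.25, adjusted p = 0.744, edgeR's quasi-likelihood test). The T-HESC libraries held NR1H2 at 138.0, 127.6 and 128.6 CPM with DMSO and 151.0, 154.0 and 209.9 CPM with AG-205. All 3 T-HESC AG-205 libraries were above all 3 DMSO libraries, and replicate 3 was the highest of the 12. This separation, found for 11.0% of the genes tested in T-HESC in either direction and for 6.23% upward, did not pass the test: the log2 fold change was 0.37 (SE 0.22, 95% interval -0.14 to 0.88, adjusted p = 0.993, edgeR), and 0.44 without AG-205 replicate 1. NAPSA, on the opposite strand, shares 22.1% of the NR1H2 exon length but had only 1 to 38 counts per library.

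NR1H3 was at 11.5, 10.8 and 11.4 CPM in HEC-1A with DMSO and at 10.0, 11.6 and 12.3 CPM with AG-205. In T-HESC it was at 8.96, 6.46 and 6.19 CPM with DMSO and at 7.68, 6.70 and 6.62 CPM with AG-205. The treated and control libraries overlapped in both lines. The log2 fold change was 0.00 (SE 0.134, 95% interval -0.29 to 0.29) in HEC-1A and -0.06 (SE 0.277, 95% interval -0.70 to 0.58) in T-HESC, with adjusted p of 0.989 and 0.993 in edgeR, and the T-HESC value was -0.14 without AG-205 replicate 1. NR1H3 shares 4.17% of its exon length with ACP2 on the opposite strand.

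Per kilobase of exon, NR1H2 was the more abundant receptor in every library. Its level over that of NR1H3 was 12.4 ± 0.576 (SD, n = 3) in HEC-1A with DMSO and 12.9 ± 1.89 with AG-205. In T-HESC the ratio was 15.8 ± 2.42 with DMSO and 21.0 ± 5.29 with AG-205, where it ranged from 16.7 to 26.9 and overlapped the 13.1 to 17.6 of the DMSO libraries.

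The efflux transporters were nearly silent in the epithelial line. ABCA1 had no count in the 3 HEC-1A DMSO libraries and 2, 1 and 0 counts with AG-205, so that both groups were at the floor and no fold is given. In T-HESC it had 102, 118 and 39 counts with DMSO, which is 7.68, 9.78 and 3.89 CPM. With AG-205 it had 48, 16 and 145 counts, which is 4.39, 1.2 and 12.3 CPM. The T-HESC AG-205 libraries held both the lowest and the highest ABCA1 level of the line, and the groups overlapped. The log2 fold change was -0.28 (SE 0.726, 95% interval -1.96 to 1.39, adjusted p = 0.993, edgeR), and on the linear scale the interval ran from 0.258-fold to 2.62-fold. The value was -0.12 without AG-205 replicate 1, 0.19 without replicate 2 and -1.38 without replicate 3, and 0.02 without DMSO replicate 2, so its direction turned on single libraries. With library quality weights in limma it was -2.1 (adjusted p = 0.0979). ABCG1 had 0 to 2 counts in every one of the 12 libraries, among them 0 in all 3 T-HESC DMSO libraries, and no difference was detectable at this depth.

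SMPDL3A was higher in mean level with AG-205 in both lines and past the test in neither. In HEC-1A it was at 3.04, 3.43 and 3.14 CPM with DMSO and at 3.69, 4.43 and 4.31 CPM with AG-205, from 35 to 60 counts per library. All 3 HEC-1A AG-205 libraries were above all 3 DMSO libraries, as for 16.4% of the genes tested in that line (31.4% in either direction). The log2 fold change was 0.36 (SE 0.191, 95% interval -0.05 to 0.78, adjusted p = 0.257, edgeR), a 1.29-fold higher level. In T-HESC it was at 11.8, 9.78 and 6.99 CPM with DMSO and at 20.8, 14.7 and 9.75 CPM with AG-205. The T-HESC groups overlapped, because AG-205 replicate 3 lay below DMSO replicates 1 and 2. The log2 fold change was 0.65 (SE 0.353, 95% interval -0.17 to 1.46, adjusted p = 0.993, edgeR), a 1.57-fold higher level, and 0.33 without AG-205 replicate 1.

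LPCAT3 was at 8.14, 7.73 and 10.4 CPM in HEC-1A with DMSO and at 8.33, 8.50 and 6.83 CPM with AG-205. The groups overlapped, with a log2 fold change of -0.13 (SE 0.162, 95% interval -0.49 to 0.22, adjusted p = 0.653, edgeR). In T-HESC it was at 5.50, 4.89 and 7.69 CPM with DMSO and at 1.65, 6.77 and 7.46 CPM with AG-205. AG-205 replicate 1, with 18 counts, was the lowest of the 12 libraries, and the other AG-205 libraries lay within the DMSO range. The T-HESC log2 fold change was -0.20 (SE 0.516, 95% interval -1.39 to 0.99, adjusted p = 0.993, edgeR) and 0.22 without replicate 1. EMG1, on the opposite strand, shares 66% of the LPCAT3 exon length, and in that same replicate 1 it was at 85.1 CPM, against 42.4 and 32.2 CPM in the other AG-205 libraries and 43.7 to 49.5 CPM in DMSO. The strand setting of the counting was not given in the sources used here, and the part of EMG1 in the LPCAT3 values was not tested.

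**Figure D1:**
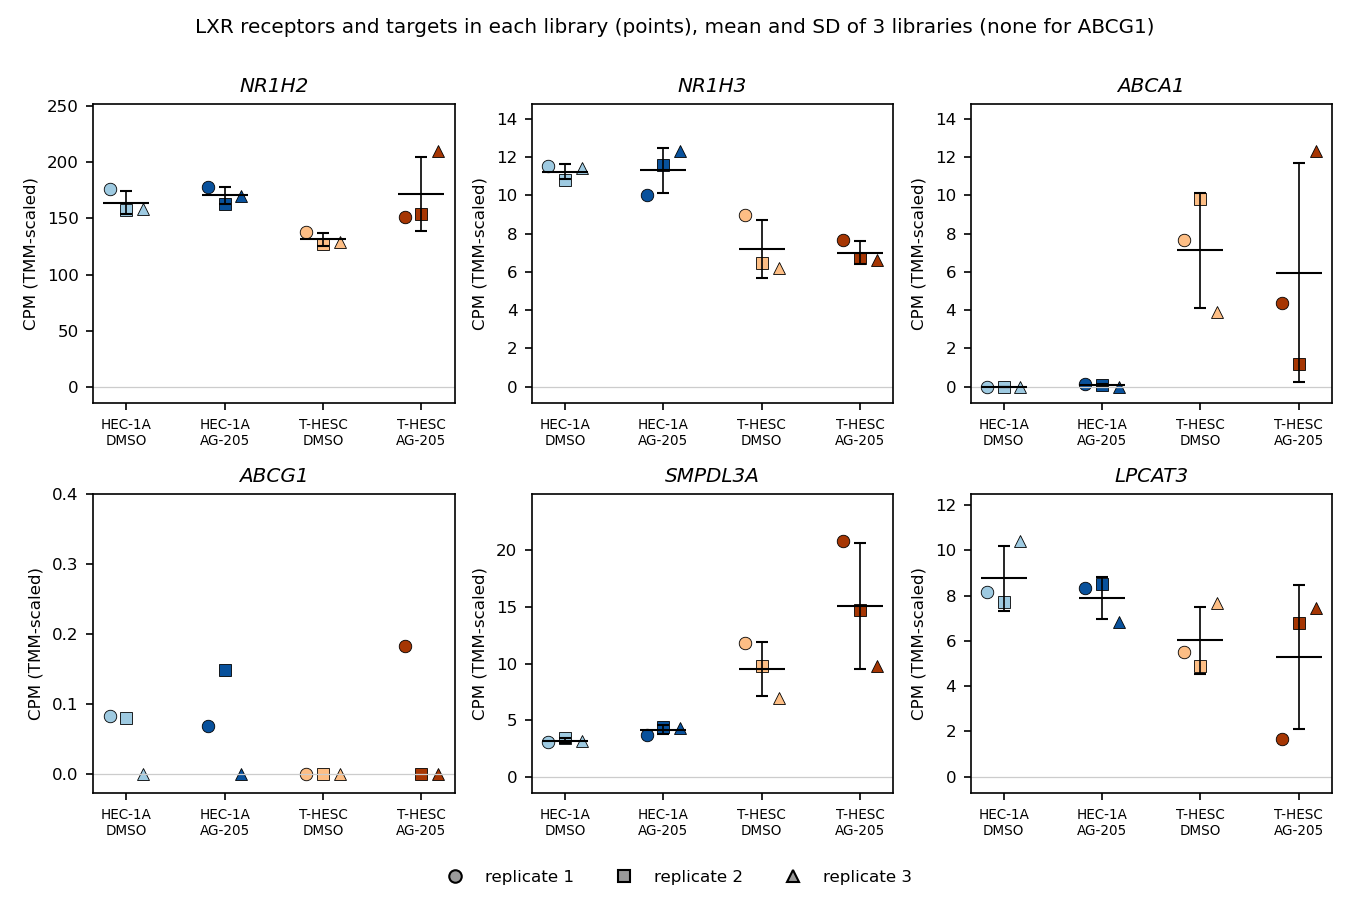
CPM after TMM scaling (vertical axes, linear, with their own range in each panel) of the 6 genes in each of the 12 libraries; horizontal marks and bars are the mean and SD of 3 libraries, left out for ABCG1, and point shapes are replicate numbers. ABCA1 was at 3.89 CPM or more in T-HESC with DMSO and at 0 in HEC-1A with DMSO, and treated and control points overlapped within a line except for SMPDL3A in HEC-1A and NR1H2 in T-HESC.

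The filter on low counts left 4 of the 6 genes in HEC-1A and 5 of them in T-HESC, and none was past the test (adjusted p under 0.05 by edgeR) in either line. The test called 11.6% of the 14122 genes tested in HEC-1A, so that 0 of 4 does not set these genes apart. Without HEC-1A AG-205 replicate 3 it called 27.8% of 14461 genes (4.67% to 8.10% without any other library), and the members past the test were still 0 of 4. In T-HESC it called 0.0800% of 13753 genes, and 0 of 5 says nothing about them. None of the tested members had an unadjusted p under 0.05 in either line, and DESeq2 and limma with library quality weights called 0 as well. An exact permutation test of 3 against 3 libraries cannot give a two-sided p below 0.1. The effect of AG-205 was next compared between the lines, as the T-HESC minus the HEC-1A log2 fold change in 1 fit of all 12 libraries. That difference was 0.33 (SE 0.218) for NR1H2, -0.06 (SE 0.273) for NR1H3, 0.29 (SE 0.404) for SMPDL3A and -0.03 (SE 0.568) for LPCAT3. None passed the test (adjusted p from 0.919 to 1, edgeR; 0 at an unadjusted p under 0.05 and 0 by DESeq2), against 0.174% of 16132 genes, and without T-HESC AG-205 replicate 1 it became -0.01 for SMPDL3A and 0.39 for LPCAT3. ABCA1, the 1 member called by limma with quality weights, has no interpretable difference because it was at the floor in HEC-1A.

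**Figure D2:**
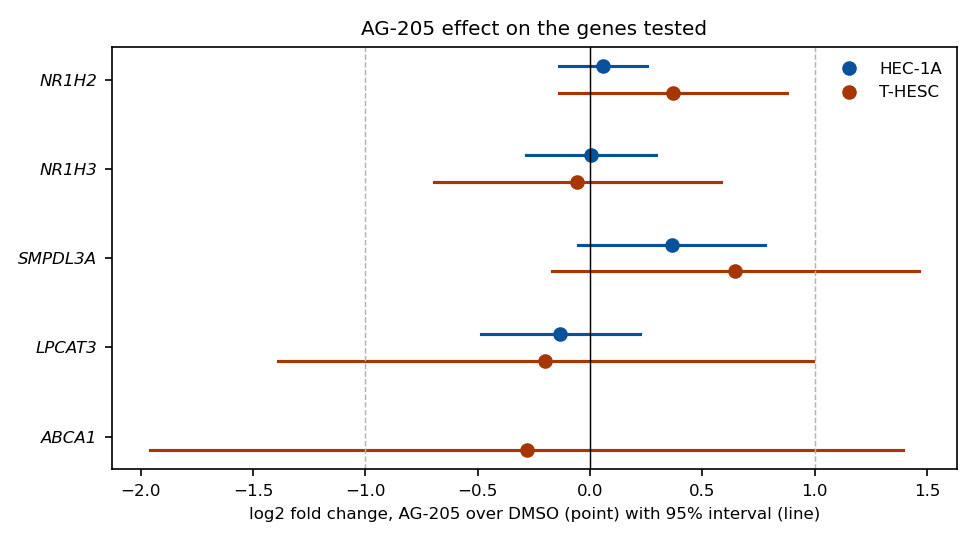
Log2 fold change of AG-205 over DMSO (horizontal axis; points) with its 95% interval (lines) from edgeR for the genes tested in HEC-1A (blue) and T-HESC (orange-brown); dashed lines mark -1 and 1. Every interval includes 0, from the narrowest for NR1H2 in HEC-1A (-0.14 to 0.25) to the widest for ABCA1 in T-HESC (-1.96 to 1.39).

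The lines differed in these genes before any treatment. Between the DMSO groups, 3 of the 5 tested members were past the test, where the test called 58.9% of 16132 genes. ABCA1 was at least 28.3-fold higher in T-HESC, from 7.12 ± 2.98 CPM (SD, n = 3) against a floor of 0.252 CPM, the mean worth of 3 counts in each HEC-1A DMSO library (adjusted p = 0.000224, edgeR). SMPDL3A was 2.98-fold higher in T-HESC, at 9.53 ± 2.43 against 3.20 ± 0.199 CPM, a log2 difference of 1.57 (SE 0.291, adjusted p = 0.00046, edgeR). NR1H3 was lower in T-HESC, at 7.21 ± 1.53 against 11.2 ± 0.408 CPM, a log2 difference of -0.64 (SE 0.194, adjusted p = 0.0129, edgeR), but that call was lost without T-HESC DMSO replicate 2 (adjusted p = 0.0543) and with no filter on low counts (adjusted p = 0.0776). NR1H2 (log2 difference -0.32, SE 0.155, adjusted p = 0.093) and LPCAT3 (-0.54, SE 0.402, adjusted p = 0.266) did not pass the test. They did pass it without T-HESC AG-205 replicate 1, which enters the shared spread, with adjusted p of 0.0382 and 0.0341 in edgeR. NR1H2 also did without T-HESC AG-205 replicate 3 (adjusted p = 0.0288). Over all genes, calls rose from 4731 higher and 4764 lower to 5573 and 5623 without replicate 1, and to 5136 and 5093 without replicate 3. All 5 tested members had DMSO groups that did not overlap between the lines, as had 75.3% of the genes tested. Cell line and the culture and sequencing of each line cannot be told apart.

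Macrophages are known for high ABCA1, and their markers were looked at beside it. The summed CPM of 6 macrophage markers was 3.40 to 4.89 in T-HESC with DMSO, 2.1 to 2.54 with AG-205 and 0.240 to 1.18 in HEC-1A. In T-HESC 4 of the 6 were above the floor, whereas LYZ and CD68 were at it, and CD68 had no count in the DMSO group. In HEC-1A, PTPRC and LYZ had no count, and the part of such cells in the ABCA1 difference was not tested.

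Set per kilobase of exon, the order of the members in HEC-1A with DMSO ran from NR1H2 (30.7 ± 1.93 CPM per kb, SD, n = 3) to NR1H3 (2.48 ± 0.0900), LPCAT3 (1.87 ± 0.308) and SMPDL3A (1.36 ± 0.0848), with ABCA1 and ABCG1 at the floor. With AG-205, LPCAT3 (1.68 ± 0.196) and SMPDL3A (1.76 ± 0.171) exchanged places within their spread. In T-HESC with DMSO SMPDL3A came second (4.06 ± 1.03), after NR1H2 (24.6 ± 1.07). NR1H3 (1.59 ± 0.337) and LPCAT3 (1.28 ± 0.314) overlapped, ABCA1 (0.628 ± 0.263) came below them and ABCG1 had no count. With AG-205 the T-HESC order of means was the same, from NR1H2 (32.1 ± 6.21) to SMPDL3A (6.41 ± 2.35), NR1H3 (1.54 ± 0.131), LPCAT3 (1.13 ± 0.677) and ABCA1 (0.526 ± 0.504). Of these, the last 3 each overlapped its neighbour. These levels divide by the whole exon length, of which LPCAT3 shares 66% with EMG1 on the opposite strand. As the strand setting was not given, the place of LPCAT3 in the order is uncertain, and the effect of the sharing was not tested.

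None of the genes of proteins through which LXRs act was past the test. Of 8 RXR and coregulator genes, 7 were tested in each line and none passed it in edgeR. Their median log2 fold change was -0.08 for HEC-1A and -0.07 for T-HESC, against 0.01 and 0.02 over all genes tested. An unadjusted p under 0.05 was found for 1 gene among HEC-1A libraries and for 0 among those of T-HESC. It was NCOA3, a coactivator of nuclear receptors (log2 fold change 0.43, SE 0.176, adjusted p = 0.139). DESeq2 called 0 in either line. In HEC-1A, limma with quality weights called 1, and over all 14122 genes it called 1996 higher and 1722 lower. Without HEC-1A AG-205 replicate 3, edgeR also called 1 there, in a fit that called 27.8% of 14461 genes. RXRA, an LXR partner, was at 68.3 ± 4.01 CPM (SD, n = 3) with DMSO and 64.4 ± 10.4 CPM with AG-205 in HEC-1A, and at 93.3 ± 2.65 and 84.3 ± 30.9 CPM in T-HESC.

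Other known LXR targets moved in both directions. Of 14 such genes, 6 were tested in HEC-1A, where 4 rose and 1 fell, with a median log2 fold change of 0.48. Over all genes tested in that line the test called 11.6% in either direction, and the median was 0.01. APOC1, an apolipoprotein of the APOE gene cluster, rose 3.09-fold, from 3.24 ± 0.561 to 10.2 ± 2.17 CPM (SD, n = 3; log2 fold change 1.63, SE 0.203, adjusted p = 0.000263, edgeR). APOE, which carries cholesterol in lipoproteins, rose 2.01-fold, from 2.17 ± 0.608 to 4.31 ± 1.14 CPM (log2 fold change 1.01, SE 0.266, adjusted p = 0.0285, edgeR). TMEM135, a peroxisomal protein, rose from 7.49 ± 0.726 to 11.0 ± 1.35 CPM, by 0.55, and EEPD1, a membrane-bound protein that controls ABCA1 abundance, rose by 0.40 on the log2 scale. EEPD1 was named after its value was seen. The number that rose depended on the setting: it was 2 with DESeq2, where TMEM135 (adjusted p = 0.0541) and EEPD1 (0.0836) were not called, and 1 in the fit of all 12 libraries, which was APOC1 (0.0418). It was 1 or 2 in edgeR without any single HEC-1A library other than AG-205 replicate 3, and 4 without that one. Over all genes, edgeR called 4.67% to 8.10% in the former fits and 27.8% in the latter. Among these alternatives APOC1 was called each time, whereas APOE was not called without DMSO replicate 1 (0.124), DMSO replicate 2 (0.122) or AG-205 replicate 2 (0.126). MYLIP, the ubiquitin ligase that sends the low-density lipoprotein receptor to degradation, fell from 10.3 ± 0.860 to 6.02 ± 1.22 CPM, by 0.80 on the log2 scale (SE 0.169, adjusted p = 0.00944, edgeR). That call was lost without HEC-1A DMSO replicate 3 (adjusted p = 0.0646) and in the fit of all 12 libraries (adjusted p = 0.605).

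In T-HESC 7 of these 14 genes were tested and none passed the test in edgeR, which called 0.0800% of all genes there. An unadjusted p under 0.05 was found for 1 gene, APOC1. DESeq2 called 0, and limma with quality weights called 1, a gene that was lower with AG-205. The median log2 fold change of the 7 was 0.16, against 0.02 over all genes tested. APOC1 had 3 to 9 counts with DMSO and 13 to 27 with AG-205 in that line, a difference of 1.83 on the log2 scale (SE 0.591, adjusted p = 0.632). MYLIP had -1.12 (SE 0.510, adjusted p = 0.961) and APOE 1.16 (SE 0.706, adjusted p = 0.993). TMEM135 had 0.16 (SE 0.264, adjusted p = 0.993), at 13.2 ± 2.00 CPM with DMSO and 14.9 ± 3.19 CPM with AG-205.

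**Figure D3:**
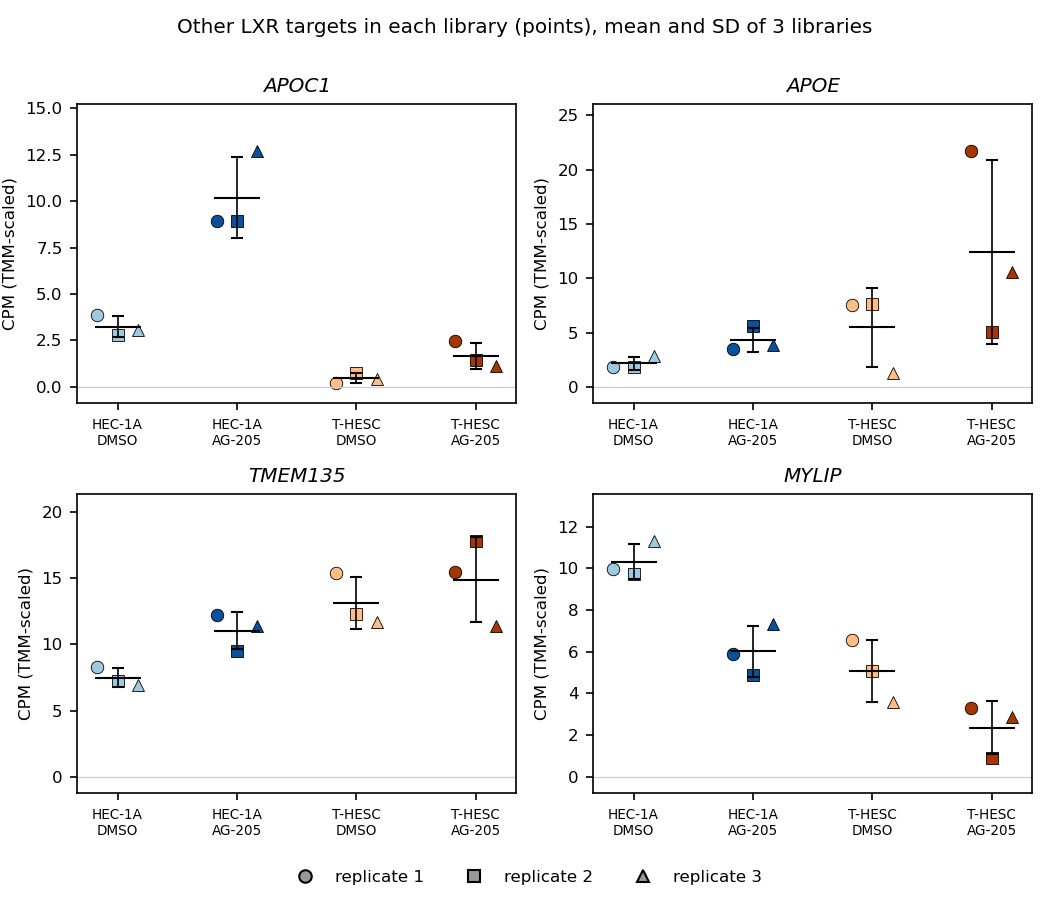
CPM after TMM scaling (vertical axes, linear) of APOC1, APOE, TMEM135 and MYLIP in each of the 12 libraries, with the mean and SD of 3 libraries as a mark and a bar. In HEC-1A the AG-205 points of APOC1, APOE and TMEM135 lay above and those of MYLIP below all DMSO points, with MYLIP at 9.72 to 11.3 CPM with DMSO and at 4.88 to 7.31 CPM with AG-205.

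All 19 SREBP-2 targets rose in HEC-1A, by 0.85 (SREBF2 itself) to 3.22 (INSIG1, which holds SREBPs in the endoplasmic reticulum), with a median of 2.14 on the log2 scale. The test called 11.6% of all genes tested in that line, and the median over all of them was 0.01. The interval of SREBF2 (0.60 to 1.10) overlapped that of SMPDL3A, whose upper bound of 0.78 was the highest of the 4 LXR members tested there. INSIG1 stood at 34.3 ± 1.63 CPM (SD, n = 3) with DMSO and 320.3 ± 43.2 CPM with AG-205 in HEC-1A, and at 118.0 ± 30.8 and 1049 ± 148 CPM in T-HESC. In T-HESC, where the test called 0.0800% of all genes tested and the median over all was 0.02, 9 of the 19 rose. The median of the 19 was 2.48 and the values ran from 1.21 to 3.74. That count rested on the libraries used: it was 0 without DMSO replicate 1, 2 or 3 or without AG-205 replicate 2, where edgeR called no gene at all (404 to 685 genes at an unadjusted p under 0.05). Leaving out AG-205 replicate 3 gave 5 (0.0354% of all genes called) and leaving out replicate 1 of that group gave 18 (0.511%). The median of the 19 stayed between 2.22 and 2.55 in these 6 fits. In T-HESC the upper bounds of ABCA1 (1.39) and SMPDL3A (1.46) reached into the 1.21 to 3.74 of the SREBP-2 targets. No test was made of the difference between the lists.

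Genes activated by both LXR and SREBP-1 mostly rose as well. Of 8, 7 rose in HEC-1A, with a median log2 fold change of 1.17. Over all genes tested in that line the test called 11.6%, and the median was 0.01. SCD, the stearoyl-CoA desaturase, rose 23.7-fold (log2 fold change 4.57, SE 0.143, adjusted p = 2.23e-09, edgeR), and ELOVL6, which lengthens fatty acids, rose 4.55-fold (log2 2.19, SE 0.0931). SREBF1, which encodes SREBP-1 and is a direct LXR target, was the exception: it was at 201.4, 203.1 and 196.6 CPM with DMSO and at 236.3, 190.6 and 172.5 CPM with AG-205. The HEC-1A groups overlapped, and the log2 fold change was 0.00 (SE 0.111, 95% interval -0.24 to 0.24) there and -0.22 (SE 0.336) in T-HESC. SREBF1 and SREBF2 were named after their values were seen. In T-HESC none of the 8 passed the test in edgeR, which called 0.0800% of all genes there. Of the 8, 6 had an unadjusted p under 0.05, DESeq2 called 2 and limma with quality weights called 6. Their median was 1.55, against 0.02 over all genes tested. Without T-HESC AG-205 replicate 1, edgeR called 4 of the 8 and 0.511% of all genes, and without any other library of the line it called 0 of the 8. SREBF2 in T-HESC AG-205 replicate 1 was at 142.8 CPM, within the 137.6 to 167.5 CPM of the DMSO libraries, while replicates 2 and 3 were at 387.4 and 549.0 CPM. INSIG1 in that same replicate 1 was at 1059.1 CPM, against 85.6 to 146.9 CPM with DMSO. For 17 of the 19 SREBP-2 targets, SREBF2 not among them, all 3 T-HESC AG-205 libraries were above all DMSO libraries, as for 6.23% of the genes tested.

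**Figure D4:**
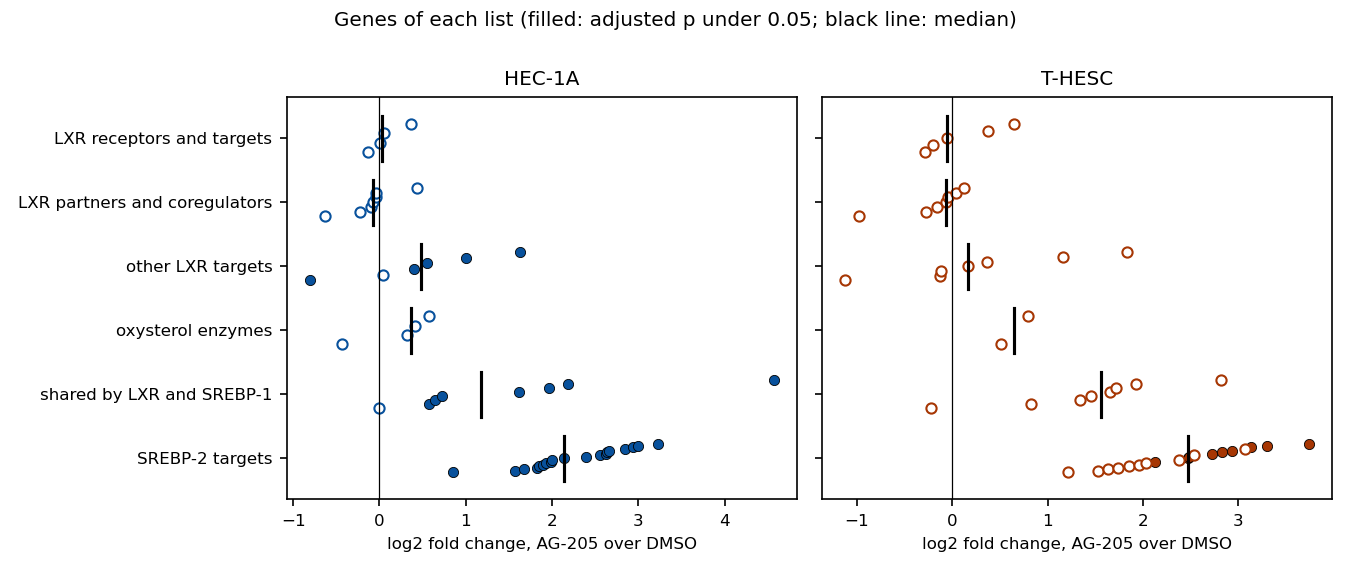
Log2 fold change of AG-205 over DMSO (horizontal axes) of the tested genes of 6 lists in HEC-1A (left) and T-HESC (right); each point is a gene, filled where the adjusted p was under 0.05 in edgeR, and the black line is the median of the list. The tested genes among the 6 LXR receptors and efflux targets followed here (top row) lay between -0.28 and 0.65 and held no filled point, while the 19 SREBP-2 targets lay at 0.85 or above.

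Enzymes that make or remove oxysterols, the LXR ligands, were mostly at low counts. CH25H, which makes 25-hydroxycholesterol, had no count in any library. Of 8 genes, 4 passed the filter in HEC-1A and 2 did so in T-HESC. None passed the test in edgeR in either line, and DESeq2 called 0 in both. Over all genes tested, edgeR called 11.6% in HEC-1A and 0.0800% in T-HESC. In HEC-1A none of the oxysterol enzymes had an unadjusted p under 0.05 and limma with quality weights called 0. Their median log2 fold change was 0.37, against 0.01 over all genes tested. The smallest p there was that of CYP27A1, the sterol 27-hydroxylase, which differed by 0.58 on the log2 scale (SE 0.379, adjusted p = 0.368). In T-HESC 1 had an unadjusted p under 0.05, HSD3B7, an enzyme of bile acid synthesis from oxysterols (log2 fold change 0.79, SE 0.227, adjusted p = 0.520), and limma with quality weights called 1.

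Among 16 genes related to the members by family or by reaction, 12 were tested in HEC-1A and 3 rose. The test called 11.6% of all genes tested there, in either direction. LPCAT1, which like LPCAT3 acylates lysophosphatidylcholine, rose 2.70-fold, from 57.1 ± 3.76 to 153.5 ± 36.3 CPM (SD, n = 3; log2 fold change 1.43, SE 0.145, adjusted p = 4.44e-05, edgeR). MBOAT7, an acyltransferase for lysophosphatidylinositol, rose by 0.53 and ABCA5, a transporter related to ABCA1, by 0.66 on the log2 scale. Without HEC-1A AG-205 replicate 3 the number that rose was 6 of 13, in a fit that called 27.8% of 14461 genes in either direction. Of the 10 tested in T-HESC, none passed in edgeR or DESeq2, 1 (LPCAT1) had an unadjusted p under 0.05 and limma with quality weights called 1.

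Over the 12 libraries, the genes with the pattern nearest to each member were found as those with the smallest root mean square difference of log2(CPM + 1), each centred on its own mean. For ABCA1 they were GRIA1 (0.211), APOL3 (0.260) and GALNT15 (0.282), against a spread of 1.46 of ABCA1 around its own mean. For SMPDL3A, with a spread of 0.799, the nearest was MAP1LC3B (0.164). For NR1H3 it was CDPF1 (0.0872, spread 0.329), for LPCAT3 UBE3B (0.101, spread 0.518) and for NR1H2 ATG101 (0.111, spread 0.195). The likeness rests on 4 groups, so it is a description only. Levels of ABCA1, NR1H3 and SMPDL3A did not overlap between the lines over the 12 libraries. For LPCAT3 and NR1H2, single libraries lay far out: T-HESC AG-205 replicate 1 (1.65 CPM) for LPCAT3 and replicate 3 of that group (209.9 CPM) for NR1H2.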

How the data were processed

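PolyA RNA of HEC-1A and T-HESC cells was sequenced in 2 × 150 bp reads. The authors used Trimmomatic 0.38 for trimming and HISAT2 2.1.0 for alignment (GRCh38), and deposited the counts per gene made by featureCounts (Subread 2.0.0) on Ensembl release 94, with no normalization. Strand setting and handling of multiply matching reads were not given in the sources used here. Of 58735 genes, 23756 had no count.

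Each line was fitted with edgeR 4.0.16 (TMM scaling, filterByExpr, quasi-likelihood test, R 4.3.3), and contrasts between lines in 1 fit of the 12 libraries. P-values were adjusted by Benjamini-Hochberg over all genes tested, with a threshold of 0.05. They measure the spread between 3 libraries per group, and the code was tested on simulated data. Exon lengths and overlaps came from GENCODE 44. Alternatives were DESeq2 1.42.0, limma 3.58.1 with quality weights, other size factors, no filter, a replicate term, a log2 fold limit of 1, 1 fit of all libraries and leaving out each library.

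The members and lists were chosen with earlier results of these data known. Of each list, at most the 4 genes with the smallest p in each line were named, unless stated, and 3 list genes are not reported here. Intervals are 95% and floors cover counting error only.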

Additional observations from a re-analysis of the deposited data

How the results depend on the processing

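Of 244 values of single members under the alternatives, 214 kept their direction and side of the threshold and 23 turned direction, each a log2 value with a main size of 0.29 or less and none past the test. Members past the test in HEC-1A and in T-HESC numbered 0 under every alternative; for the difference between the lines the number was 1 with library quality weights (ABCA1, at the floor in HEC-1A) and 0 otherwise. Between the DMSO groups it was 3, and 5 with library quality weights and without T-HESC AG-205 replicate 1. It ranged from 2 to 5 among the alternatives that kept all libraries, and also when 1 library was left out. Calls over all genes rose in these fits too. They were 4731 higher and 4764 lower of 16132 in the main fit, 6093 and 6323 with weights, and 5573 and 5623 of 16301 without that replicate. ABCA1 in T-HESC had a log2 fold change of -2.10 (adjusted p = 0.0979) with quality weights, and the cause was not tested.

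NR1H3 in HEC-1A turned to -0.001 with RLE size factors and -0.041 with quality weights, and ranged from -0.062 to 0.092 when 1 library was left out. Quality weights turned LPCAT3 to 0.23 in T-HESC and to 0.37 in the difference between the lines, where no filter gave 0.016. Leaving out 1 library gave -0.22 to 0.0087 for LPCAT3 in HEC-1A, -0.51 to 0.22 for LPCAT3, -1.38 to 0.19 for ABCA1 and -0.16 to 0.13 for NR1H3 in T-HESC, and, in the difference between the lines, -0.15 to 0.13 for NR1H3, -0.01 to 0.52 for SMPDL3A and -0.34 to 0.39 for LPCAT3.

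The labels do not say whether a replicate number marks a shared culture experiment. Same-numbered deviations correlated at -0.0806, 0.233 and 0.00227 in HEC-1A and at 0.215, -0.528 and -0.0427 in T-HESC, and not every library correlated best with its own number. With 3 libraries per group, such correlations cannot tell whether the libraries were paired. With the replicate number as a block, members past the test numbered 0, 0, 0 and 3 in HEC-1A, T-HESC, the difference between the lines and the DMSO groups; all calls were 926 higher and 514 lower in HEC-1A, against 1038 and 605 without it, and 9 higher in T-HESC, against 11.

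List counts in HEC-1A moved as follows. The 4 other LXR targets that rose became 2 with the fold limit, 2 with DESeq2 and 1 in the fit of 12 libraries, and the 1 that fell became 0 with the fold limit and in the fit of 12. The 7 shared targets became 4 and 2 with the fold limit and the fit of 12. The 3 genes related to the members became 1 with each of those, 5 with no filter, 5 with the block and 6 with weights. In T-HESC, DESeq2, no filter, weights and the fit of 12 called 18, 19, 18 and 16 SREBP-2 targets against 9, and 2, 5, 6 and 3 shared targets against 0. Over all genes, these 4 alternatives called 119, 145, 319 and 175 higher in T-HESC, against 11. The lowest number of SREBP-2 targets called among the alternatives that kept all libraries was 7. Weights also called 1 other LXR target lower and 1 oxysterol enzyme higher in T-HESC, against 0. The list counts were also made with each library left out, an alternative chosen after seeing the data. In HEC-1A 1 to 4 other LXR targets rose and 0 or 1 fell. There 6 or 7 shared targets, 2 to 6 genes related to the members and all 19 SREBP-2 targets rose. In T-HESC 0 to 18 SREBP-2 targets and 0 to 4 shared targets rose. The T-HESC calls over all genes were 0 without any 1 of the 3 DMSO libraries or AG-205 replicate 2. They were 5 higher when AG-205 replicate 3 was left out, and 69 higher and 3 lower when replicate 1 of that group was.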
